A study of Mus musculus with 2 samples.

Results

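Among the genes through which macrophages receive or answer interferon-gamma, 8 were followed here in single alveolar macrophages (AMs). They are the receptor chains *Ifngr1* and *Ifngr2*, the transcription factor *Irf1*, the chemokines *Cxcl9* and *Cxcl10*, the guanylate-binding proteins *Gbp2* and *Gbp5*, and *AW112010*, annotated as a long non-coding RNA. The genes were listed by name from 32285 listed genes, with earlier results of these data in view, and each symbol matched 1 Ensembl identifier in both tables. For each gene the level in each library, the share of its molecules held by the top cells and its co-expression with the others were read in barcodes with at least 500 detected genes and at most 10% mitochondrial counts. Both libraries were made from AMs of C57BL/6 mice of 10 weeks, isolated by flow sorting from digested lung. The control library came from vehicle-control animals. The tumor library came from animals whose left lung had been implanted with LLC (Lewis lung carcinoma) cells, a mouse lung cancer line. How many mice were pooled in each is not given in the sources used here, and the methods state that experimental and control mice were bred separately. The labels name no genetic change and no interferon treatment in either group.

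Interferon-gamma is secreted mainly by activated T cells and natural killer cells and is bound by a receptor of the IFNGR1 and IFNGR2 chains. The receptor activates the kinases JAK1 and JAK2, and the signal reaches GAS elements in the promoters of early targets such as *Irf1*, whose product then acts on ISRE elements of later targets. *Cxcl9* depends largely on this route, whereas *Cxcl10* also answers to type I interferons and to NF-kB. CXCL9 and CXCL10 attract T cells through the receptor CXCR3, and guanylate-binding proteins are large GTPases that act on intracellular pathogens.

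The promoters are shown for the 5 protein-coding targets because their letters can be set beside the factors named above. The 250 bases before each start site were taken from RefSeq (GRCm38.p6), where all 8 genes had an entry, and are printed 5′ to 3′ on the strand of the gene. Capitals mark matches, on either strand, to the ISRE core (a pair of GAAA repeats with any 2 bases between them), to the GAS motif TTCNNNGAA or to the NF-kB (kappaB) motif.
Cxcl9, chr5:92328080-92328329, minus strand: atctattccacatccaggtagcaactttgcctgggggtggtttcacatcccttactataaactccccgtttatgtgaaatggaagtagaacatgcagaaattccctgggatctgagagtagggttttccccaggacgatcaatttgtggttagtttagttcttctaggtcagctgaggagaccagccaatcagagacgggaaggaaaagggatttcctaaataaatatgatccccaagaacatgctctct
Cxcl10, chr5:92348890-92349139, minus strand: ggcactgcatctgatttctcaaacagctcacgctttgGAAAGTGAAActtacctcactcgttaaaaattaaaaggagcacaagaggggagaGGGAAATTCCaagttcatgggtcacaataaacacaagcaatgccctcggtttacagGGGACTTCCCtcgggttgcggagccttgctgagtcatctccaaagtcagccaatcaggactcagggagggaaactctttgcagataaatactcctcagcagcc
Irf1, chr11:53769764-53770013, plus strand: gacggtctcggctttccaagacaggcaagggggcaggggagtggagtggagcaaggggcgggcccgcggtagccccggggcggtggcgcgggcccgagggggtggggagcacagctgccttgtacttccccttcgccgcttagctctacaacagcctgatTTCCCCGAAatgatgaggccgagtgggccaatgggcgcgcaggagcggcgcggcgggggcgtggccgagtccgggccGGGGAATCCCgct
Gbp2, chr3:142620413-142620662, plus strand: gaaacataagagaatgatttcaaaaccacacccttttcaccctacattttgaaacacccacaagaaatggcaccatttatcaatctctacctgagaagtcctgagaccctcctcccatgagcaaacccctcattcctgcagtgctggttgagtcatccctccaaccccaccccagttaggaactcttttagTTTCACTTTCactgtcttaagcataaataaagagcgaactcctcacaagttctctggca
Gbp5, chr3:142496684-142496933, plus strand: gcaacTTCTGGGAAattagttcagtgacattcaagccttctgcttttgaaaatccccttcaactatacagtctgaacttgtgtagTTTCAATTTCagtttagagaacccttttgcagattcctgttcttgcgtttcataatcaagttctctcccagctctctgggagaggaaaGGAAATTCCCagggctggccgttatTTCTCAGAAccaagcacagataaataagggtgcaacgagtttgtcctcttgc

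The *Cxcl10* promoter held 1 ISRE core, beginning 213 bases before the start, and 2 kappaB matches, GGGAAATTCC and GGGACTTCCC, of which the first began at 159 bases. The *Cxcl9* window held none of these motifs as searched here, which says only that these letters were not in this window. In *Irf1*, 1 GAS match, TTCCCCGAA, began 90 bases before the start and 1 kappaB match 13 bases before it. *Gbp2* had 1 ISRE core at 59 bases, TTTCACTTTC on the printed strand. *Gbp5* had 1 ISRE core, 2 GAS matches and 1 kappaB match, with the nearer GAS match, TTCTCAGAA, 52 bases before the start. *AW112010* and *Ifngr2* had 1 kappaB match each, and *Ifngr1* had no match. No position was shared by matches to different motifs. Among 32851 RefSeq promoters of the same length, 2.98% held the ISRE core, 7.02% the GAS motif and 3.90% the kappaB motif. The RefSeq starts of *Gbp5* and *AW112010* lie 2956 and 5242 bases from the gene starts of the GENCODE vM21 annotation. For *Irf1* 2 RefSeq starts are given, of which the one at the GENCODE start was used.

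The filter kept 6185 of 8485 control barcodes and 7666 of 9175 tumor barcodes. The kept barcodes, called cells below, held 64850143 and 68801889 unique molecular identifiers (UMIs, 1 per captured transcript), with medians of 10370 and 8264 UMIs per cell, and 17 barcode sequences occurred in both libraries. At least 3 of 14 AM markers were detected in 99.6% of control and 99.3% of tumor cells. At least 3 markers of another cell type were detected in 100 control cells and 275 tumor cells, of which 226 tumor cells carried markers of interstitial or monocyte-derived macrophages. Levels are given as CPM, the UMIs of a gene scaled to a common total of UMIs in the same cells, with 95% intervals from counting error in parentheses. With 1 library per condition no test was possible, cells are not replicates, and library and condition cannot be told apart.

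The ligand was almost absent from the sorted cells. *Ifng* had 1 UMI in the control library and 2 UMIs, both in 1 cell, in the tumor library, and its CPM had upper limits of 0.0859 and 0.105. Summed over 12 T or NK cell markers, the level was 2.78 CPM in control and 2.33 CPM in tumor, with 4 of the 12 markers at 0 in the tumor library. The type I and III interferons *Ifnb1*, *Ifna4*, *Ifnl2* and *Ifnl3* had 0 UMIs in both libraries, and *Ifna2* had 1 UMI in tumor. A count of 3 would have been 0.0463 CPM in control and 0.0436 CPM in tumor.

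Both receptor chains were present in a large share of cells, and their levels were less than 2-fold apart between the libraries. *Ifngr1* (ENSMUSG00000020009, chr10:19591949-19610229) was at 136 CPM (133 to 139) in control and 160 CPM (157 to 163) in tumor, a log2 ratio of 0.24 (0.20 to 0.28). *Ifngr2* (ENSMUSG00000022965, chr16:91547072-91565623) was at 52.0 CPM (50.2 to 53.8) and 82.8 CPM (80.7 to 85.0), a log2 ratio of 0.67 (0.61 to 0.73). The receptor's kinases were also higher in the tumor library by less than 2-fold. *Jak1* had a log2 ratio of 0.25 (0.21 to 0.29) and *Jak2* of 0.41 (0.31 to 0.51). The feedback inhibitors *Socs1* and *Socs3*, which block JAK signalling, were 2.78-fold and 4.54-fold higher.

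*Irf1* (ENSMUSG00000018899, chr11:53770014-53778374), a transcription factor induced early in the response, was at 28.5 CPM (27.3 to 29.9) in control and 52.2 CPM (50.5 to 54.0) in tumor. Its log2 ratio was 0.87 (0.79 to 0.95). *AW112010* (ENSMUSG00000075010, chr19:11047612-11055808) was at 130 CPM (128 to 133) and 199 CPM (196 to 202), a log2 ratio of 0.61 (0.57 to 0.65). Neither reached 2-fold.

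The chemokines and guanylate-binding proteins differed more between the libraries. *Cxcl9* (ENSMUSG00000029417, chr5:92321347-92328079) had 270 UMIs in control, or 4.16 CPM (3.68 to 4.69), and 1592 in tumor, or 23.1 CPM (22.0 to 24.3). This was a log2 ratio of 2.47 (2.29 to 2.67), or 5.56-fold. *Cxcl10* (ENSMUSG00000034855, chr5:92346638-92348889) lies in the same cluster of CXC chemokine genes and was at 4.67 CPM (4.16 to 5.23) and 16.2 CPM (15.3 to 17.2), a log2 ratio of 1.80 (1.61 to 1.98). *Gbp5* (ENSMUSG00000105504, chr3:142493978-142522344) had the lowest counts, 93 UMIs in control (1.43 CPM, 1.16 to 1.76) and 388 in tumor (5.64 CPM, 5.09 to 6.23), a log2 ratio of 1.98 (1.65 to 2.32). *Gbp2* (ENSMUSG00000028270, chr3:142620602-142638008) was at 14.6 CPM (13.7 to 15.6) and 33.7 CPM (32.3 to 35.1), a log2 ratio of 1.20 (1.09 to 1.31).

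Thus 4 of the 8 genes were at least 2-fold higher in the tumor library and none was 2-fold lower, against 7.18% higher and 9.02% lower among 14784 genes compared. Since the genes were named with these levels known, the count is a description of the list. The *Cxcl9* ratio rested on few cells and moved with how they were weighted. It was 1.85 on the log2 scale as the mean of the CPM of single cells, where *Gbp2* came to 0.97 and thus below 2-fold, and 3.21 when the 10 cells with the most *Cxcl9* UMIs were left out of each library. Interstitial or monocyte-derived macrophage markers moved in the same direction, from 27.3 CPM summed over 12 markers in control to 130 CPM in tumor. Fibroblast markers did so too, from 0.709 to 31.7 CPM summed over 5 markers. The sum over 6 neutrophil markers went from 70.3 to 123 CPM, but single markers were divided. Of 5 compared, 1 was at least 2-fold higher and 2 were lower, with a median log2 ratio of −0.22. Summed epithelial and dendritic cell markers were lower in tumor (84.5 and 22.0 CPM, 25.2 and 14.4 CPM). Their part in the result was tested only by leaving out cells. Without the cells that carried at least 3 markers of another type, the *Cxcl9* ratio was 2.09, and the same number of genes, 4, were at least 2-fold higher.

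**Figure D1:**
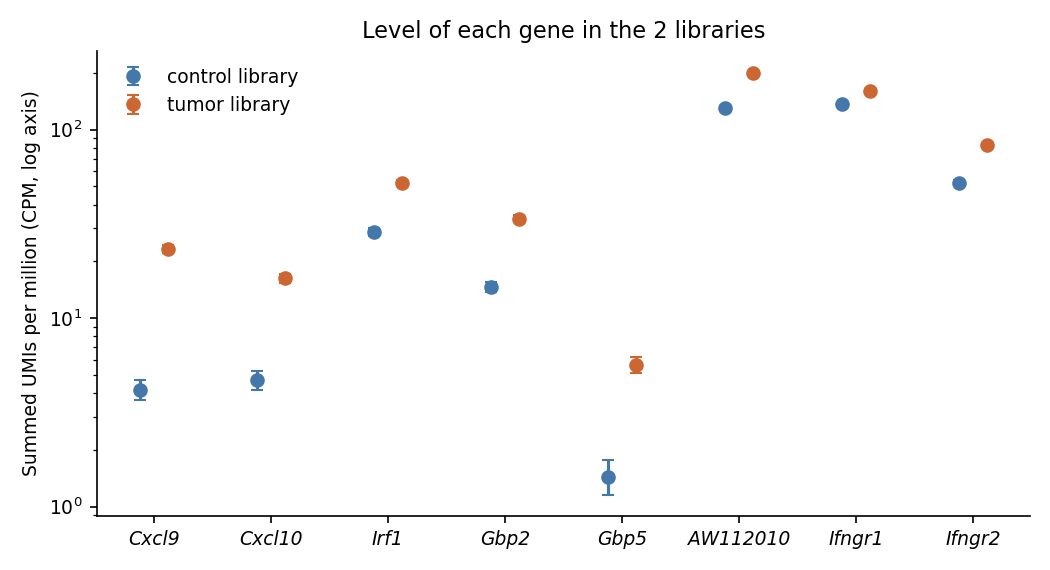
Level of each gene in the control and tumor libraries, as CPM of summed UMIs on a log axis, with bars for the 95% Poisson interval where they exceed the symbol. All 8 genes were higher in the tumor library, from *Ifngr1* (136 against 160 CPM) to *Cxcl9* (4.16 against 23.1 CPM).

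The difference was not confined to the cells that carried a chemokine. In the 6015 control and 7240 tumor cells with no UMI of *Cxcl9* or *Cxcl10*, *Gbp2* was at 13.3 CPM (12.4 to 14.2) and 26.6 CPM (25.3 to 27.9), a log2 ratio of 0.997 (0.88 to 1.12). *Gbp5* was at 1.24 and 4.08 CPM there, a log2 ratio of 1.72 (1.35 to 2.10), and *Irf1* had a log2 ratio of 0.81 (0.73 to 0.89). That of *AW112010* was 0.38 (0.33 to 0.42) in these cells, against 0.61 in all cells, and those of the receptor chains were 0.26 for *Ifngr1* and 0.68 for *Ifngr2*.

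Around the 8 genes, lists of related genes, with members left out, were set against the 7.18% of all genes compared that were at least 2-fold higher in the tumor library and the 9.02% that were lower. Of 9 genes of the interferon-gamma axis and of 11 other effectors, 3 each were higher and none lower, with median log2 ratios of 0.43 and 0.59. A low gene can pass the minimum count through the group where it is high, so lists were also counted with the minimum met at the rate of the lower group. Under that rule 5.08% of 13755 genes were higher, and 2 of 10 other effectors were. Of 6 other guanylate-binding proteins with enough counts to compare, 4 were at least 2-fold higher in the tumor library and none lower, with a median log2 ratio of 1.21 against −0.08 over all genes compared. *Gbp6* was at 1.99 and 10.4 CPM, while *Gbp7* was at 28.6 and 39.2 CPM. Of 6 immunity-related GTPases, which with the guanylate-binding proteins attack vacuoles that hold pathogens, 5 were at least 2-fold higher (4 of 5 with the minimum met at the lower rate, without *Tgtp2* with its 4 and 9 UMIs), among them *Iigp1* (0.154 and 2.40 CPM) and *Ifi47* (3.32 and 13.1 CPM). MHC class II genes, which the transactivator CIITA switches on in response to interferon-gamma, were less than 2-fold apart. A count of 0 of 6 lies near the share over all genes, and the median log2 ratio was −0.20, with *Cd74*, the invariant chain, at 444 and 353 CPM, and *Ciita* itself at 2.41 and 1.51 CPM. Of 9 MHC class I genes, 2 were at least 2-fold higher, *H2-K1* at 614 and 1287 CPM and the peptide transporter *Tap1* at 23.0 and 47.7 CPM. In the type I interferon list, 22 of 23 genes were at least 2-fold higher, with a median log2 ratio of 3.52. *Ifi27l2a* was at 43.5 and 603 CPM and *Bst2* at 89.1 and 222 CPM. Guanylate-binding proteins also answer to type I interferon, so that the lists are not separate readouts. Members of the *Gbp* and GTPase families are similar in sequence, and reads shared between copies may be lost or assigned to either.

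The share of cells with a UMI was compared after each cell was thinned to 3800 UMIs, which left out 595 control and 729 tumor cells with fewer. *Cxcl9* was detected in 39 of 5590 control cells, or 0.698% (0.497 to 0.953), and in 116 of 6937 tumor cells, or 1.67% (1.38 to 2.002). *Cxcl10* was detected in 0.751% (0.542 to 1.01) and 2.10% (1.78 to 2.47). *Gbp5* was detected in 0.537% and 1.64%, *Gbp2* in 4.97% and 9.69%, and *Irf1* in 9.73% and 16.1%. The remaining genes were found in many more cells. *AW112010* was detected in 31.9% (30.7 to 33.2) and 36.7% (35.6 to 37.9), *Ifngr1* in 39.7% and 45.0%, and *Ifngr2* in 17.7% and 26.4%. Before thinning, the shares of *AW112010* (56.0% and 54.6%) and *Ifngr1* (68.9% and 67.2%) had the opposite order, against their CPM, and no order was read from them. The other 6 genes had the same order unthinned, with *Cxcl9* at 1.42% and 2.48%. Barcodes that carried at least 3 markers of another type and fewer than 3 AM markers were too few for a firm background. *Cxcl9* was detected in 0 of 11 of them in control, which allows a share of up to 27.3%, and in 5 of 20 in tumor, at median depths of 4155 and 7196 UMIs, unthinned. In the same barcodes *Ifngr1* was detected in 6 of 11 and 13 of 20, and *Ifngr2* in 3 of 11 and 10 of 20. *AW112010* was detected in 8 of 11 and 8 of 20, *Irf1* in 3 of 11 and 12 of 20, and *Gbp2* in 4 of 11 and 5 of 20. *Cxcl10* had 0 of 11 and 4 of 20, and *Gbp5* 0 of 11 and 2 of 20. No background share was taken from these barcodes for any gene.

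Cells in which several of the genes were detected made up a larger share of the tumor library. Of the 6 targets (the receptor chains left out), at least 3 were detected in 21 of 5590 thinned control cells (0.376%, 0.233 to 0.574) and in 142 of 6937 thinned tumor cells (2.05%, 1.73 to 2.41). At least 4 were detected in 2 control and 32 tumor cells, and all 6 in 0 control and 3 tumor cells. No target was detected in 57.5% of control and 47.4% of tumor cells. Each of the 6 targets was by itself detected in a larger share of thinned tumor cells, which alone raises the share of cells with several. How far this accounts for the difference was not tested, so these counts are not read as a gain in co-expression.

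The chemokine UMIs lay in a very small number of cells. The 1% of cells with the most *Cxcl9* UMIs, 62 control and 77 tumor cells, held 90.4% of them (86.2 to 93.6) in control and 91.9% (90.4 to 93.2) in tumor. For *Cxcl10* these shares were 93.1% (89.6 to 95.7) and 78.0% (75.5 to 80.4), and for *Gbp5* 77.4% and 48.2%. A gene of few UMIs reaches a high share by counting alone: if every *Gbp5* UMI of the control library lay in a cell of its own, the top 1% of cells would still hold 66.7%. For *Cxcl9* that floor was 23.0% in control and 4.84% in tumor. *Gbp2* was at 25.4% and 26.4%, *AW112010* at 14.3% and 22.4%, and *Irf1* at 13.4% and 14.2%. The receptor chains were spread most evenly, *Ifngr1* at 4.87% and 5.65% and *Ifngr2* at 7.27% and 7.23%. The top 1% of cells by depth held 2.59% and 3.02% of all UMIs, and the median gene with at least 200 UMIs had 9.95% and 11.1% of its UMIs in its own top 1%. Only 4 of 9612 such genes in control and 19 of 9623 in tumor had a higher share than *Cxcl9*.

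**Figure D2:**
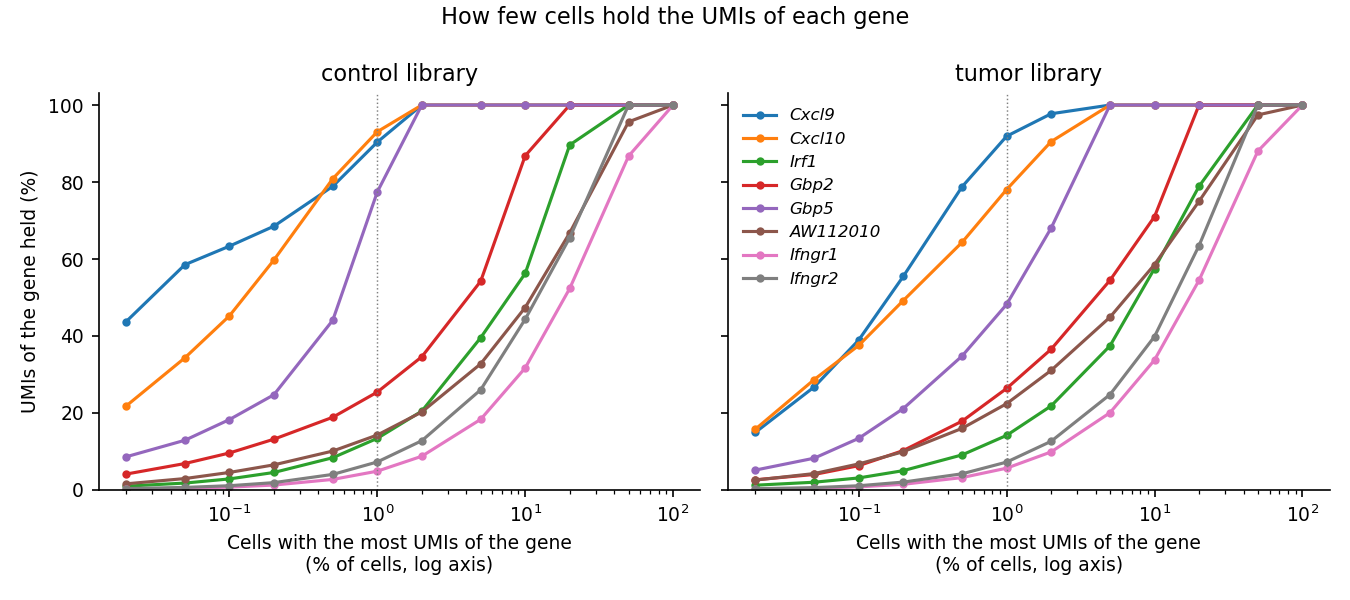
Percent of the UMIs of each gene (vertical axis) held by the cells with the most UMIs of that gene, ranked and given as percent of cells on a log axis, in the control and tumor libraries. At the dotted line, 1% of cells, *Cxcl9* stood at 90.4% and 91.9% and *Ifngr1* at 4.87% and 5.65%.

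Single cells carried much of these totals. In control, 82 of the 270 *Cxcl9* UMIs (30.4%) were in 1 cell, with 36 and 32 in the next, so that 3 cells held more than 50% of the total. In tumor, the highest cells had 124, 114 and 105 *Cxcl9* UMIs, and 13 cells were needed to reach 50%. The cell with 105 *Cxcl9* UMIs also had 90 of *Cxcl10*, 43 of *Gbp2* and 209 of *AW112010*, the highest *AW112010* count of any tumor cell, among 18743 UMIs. The other two had 0 *Cxcl10* UMIs, with 141 and 100 of *AW112010*. Of the 10 highest *Cxcl9* cells, 3 in tumor and 0 in control carried at least 3 markers of another type.

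Co-expression over cells was weak. Pearson's r of log-scaled counts is given over the 6185 control and 7666 tumor cells as a description, since most cells have 0 UMIs of either gene and all cells of a library share its preparation. *Cxcl9* and *Gbp2* had an r of 0.20 in control and 0.28 in tumor, the highest of the 15 pairs of targets in each. In tumor the pair stayed highest on thinned cells and by Spearman's rank correlation, but in control *Cxcl9* and *Gbp5* were higher on thinned cells (0.17 against 0.15) and *Gbp2* and *AW112010* by rank (0.0593 against 0.0428). *Cxcl9* and *AW112010* followed in tumor, at 0.25, with 0.13 in control. *Cxcl9* and *Cxcl10*, neighbours on chromosome 5, had an r of 0.03 in control and 0.14 in tumor. *Irf1* was not above 0.11 with any other target, and that was with *Cxcl10* in tumor. The median over the 15 pairs was 0.04 in control and 0.11 in tumor, and an r of at least 0.1 was found for 5 pairs in control and 10 in tumor. On thinned cells these counts were 2 and 7, and by Spearman's rank correlation 0 and 5. The 13 pairs that include a receptor chain had r from −0.02 to 0.04 in both libraries.

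**Figure D3:**
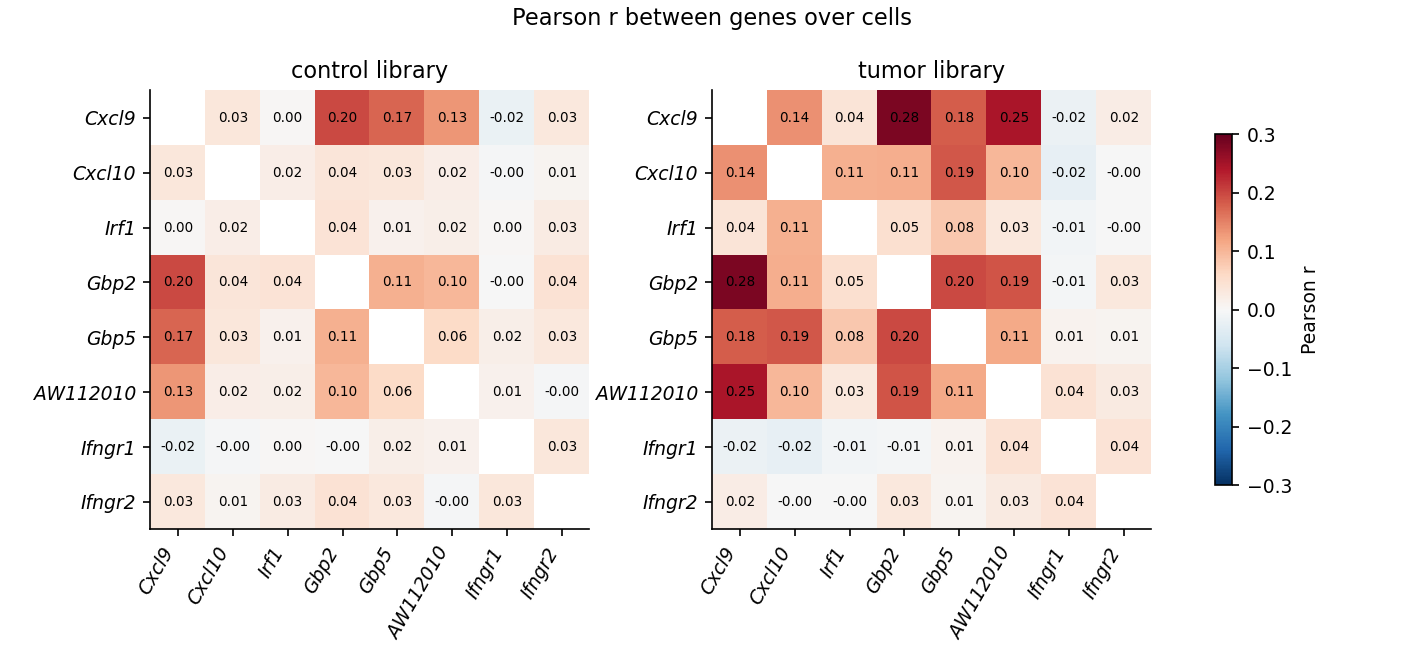
Pearson's r between each pair of genes over the cells of the control (left) and tumor (right) libraries, on a colour scale from −0.3 to 0.3. The highest values, 0.20 and 0.28, belong to *Cxcl9* with *Gbp2*, and the rows of *Ifngr1* and *Ifngr2* stay between −0.02 and 0.04.

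The genes most like each target were ranked by r over all cells of a library, here first in tumor. After *Gbp2* and *AW112010*, the genes closest to *Cxcl9* were the complement factor *Cfb* (0.24), the MHC class II chain *H2-Eb1* (0.23) and *AA467197* (0.22). Closest to *Cxcl10* were *Rsad2* (0.20), *Isg15* (0.19), *Gbp5* (0.19), *Oasl1* (0.18) and *Ifit3* (0.17), all of which type I interferon induces. *Gbp5* was closest to *Ifit2* (0.25), *Ifit1bl1* (0.22), *Rsad2* (0.21), *Ifit1* (0.21) and *Isg15* (0.21). *Gbp2* was closest to *Cxcl9*, *Isg15* (0.22), *Ifit2* (0.21), *Gbp3* (0.20) and *Gbp5* (0.20). *Irf1* was closest to the NF-kB inhibitors *Nfkbia* (0.16) and *Tnfaip3* (0.14), then *Tnf* (0.12), *Gadd45b* (0.11) and *Cxcl10* (0.11).  *AW112010* was closest to *Cxcl9* and *Cd52* (0.25 each) and to the complement component *C3* (0.22), and *Ifngr1* to *Ctss* and *Cd14* (0.18 each). In control cells the lists differed in part. *Irf1* was again closest to *Nfkbia* (0.13) and *Cxcl9* to *Gbp2* and *AW112010*, while *Cxcl10* was closest to *Isg15* (0.14), *Ccl4* (0.13) and *Ercc6l* (0.10), and *AW112010* to *Cd52* (0.16), *Gmfg* (0.15) and *Ear2* (0.14). The tumor values are the leading ones among 9616 genes with at least 200 UMIs, and for each member the median gene had an r within 0.01 of 0 in tumor cells.

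In the tumor library, 59 cells had at least 5 *Cxcl9* UMIs. They were 0.770% of the cells and held 88.4% of the *Cxcl9* UMIs with 1.32% of all UMIs, at a median depth of 14400 UMIs. The 7476 cells with 0 had a median of 8206 UMIs, 97 cells had 1 UMI and 34 had 2 to 4. *AW112010*, *Gbp2* and *Cxcl10* were higher in each group with more *Cxcl9*, and *Gbp5* only from 2 UMIs on. *AW112010* was at 164 CPM in cells with 0, 430 with 1, 816 with 2 to 4 and 2153 CPM (2059 to 2251) with at least 5, a 13.1-fold difference between the ends. *Gbp2* went from 28.0 through 55.8 and 134 to 376 CPM (337 to 418), or 13.4-fold. *Gbp5* was at 4.72, 4.57, 20.4 and 67.3 CPM (51.5 to 86.4), and *Cxcl10* at 12.2, 31.1, 81.6 and 264 CPM (231 to 299), or 168 CPM without the 1 cell with 90 UMIs. *Irf1* differed less, at 51.6, 56.7, 56.7 and 91.6 CPM (72.9 to 113), or 72.4 CPM without the 1 cell with 19 UMIs. The 59 cells were uneven. Their median CPM per cell was 0 for *Cxcl10*, *Gbp5* and *Irf1*, 254 for *Gbp2* and 1676 for *AW112010*. Neither receptor chain differed by 2-fold. *Ifngr1* was at 162 and 127 CPM (105 to 152), and *Ifngr2* at 82.8 and 105 CPM (84.8 to 128), or 1.27-fold (1.02 to 1.55). Among 8608 genes compared, 2.51% were at least 2-fold higher in the cells with at least 5 *Cxcl9* UMIs and 9.1% lower. No count of the members is read against these shares, since *Cxcl9* defined the groups and *Gbp5*, with 61 and 313 UMIs, had enough counts to be compared only through the group where it was high.

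The same 59 cells had higher levels of most antigen presentation genes, set here against 2.51% higher and 9.1% lower among all genes compared. Of the 6 MHC class II genes, 5 were at least 2-fold higher, with *Cd74* at 2918 against 300 CPM, *H2-Ab1* at 902 against 79.9 CPM and *H2-Eb1* 12.9-fold higher. *Ciita* was at 8.82 against 1.42 CPM, from 8 and 94 UMIs. Of 9 MHC class I genes, 7 were at least 2-fold higher, among them the immunoproteasome subunits *Psmb9* (2.91-fold) and *Psmb10* (2.78-fold). *Nlrc5*, the class I transactivator, was at 30.9 against 9.30 CPM. With members left out, 3 of 7 genes of the interferon-gamma axis were at least 2-fold higher and none lower (median log2 ratio 0.71). So were 2 of 5 other effectors, 3 of 3 immunity-related GTPases and 3 of 4 other guanylate-binding proteins, with none lower. *Iigp1* was 59.4-fold higher (76.1 against 1.28 CPM, 69 and 85 UMIs) and *Slamf8* 39.4-fold (49 and 91 UMIs). These and *Ciita* had too few expected counts and were not among the genes compared. In the type I interferon list 14 of 18 genes were at least 2-fold higher, *Ifitm3* by 10.4-fold, while *Ifit1* was at 23.2 against 13.6 CPM. None of 12 NF-kB and TNF genes and none of 11 immediate early genes was 2-fold higher, which lies near the share over all genes, and 3 of each list were 2-fold lower. *Fos* was at 687 against 1272 CPM, and *Mki67*, a marker of dividing cells, at 4.41 against 29.9 CPM. All 5 cell cycle genes compared were at least 2-fold lower. With the minimum met at the rate of the lower group, only 1 cell cycle gene could be compared, and it was lower. Among the controls, *Actb* and *Gapdh* were 1.39-fold and 1.22-fold higher, and *Ptprc* was at 596 and 594 CPM.

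Markers of other cell types were detected in part of these cells, which had been flow-sorted as AMs. Of the 59 cells, 17 carried at least 3 markers of another type, against 248 of the 7476 cells with 0, while 57 of the 59 had at least 3 AM markers and 1 was among those with the highest doublet scores. Summed over 12 interstitial or monocyte-derived macrophage markers, the level was 443 CPM with at least 5 *Cxcl9* UMIs, with 2 markers at 0, and 125 CPM with 0. Endothelial markers were at 59.6 against 2.73 CPM (1 of 4 at 0) and dendritic cell markers at 43.0 against 14.0 CPM, with 5 of 10 at 0. Neutrophil markers summed to 216 against 121 CPM (3 of 6 at 0). Of the 3 neutrophil markers compared, however, 1 was at least 2-fold higher and the median log2 ratio was −0.77. Summed fibroblast markers were lower, at 2.21 against 32.8 CPM (2 UMIs in the 59 cells). T or NK cell markers were at 1.10 against 2.38 CPM (1 UMI in the 59 cells). The 14 AM markers summed to 13777 against 16648 CPM, of which 5 were at least 2-fold lower and 1 higher, with a median log2 ratio of −0.71 and *Fabp1* at 18.8 against 132 CPM. The part of these markers in the results, the MHC class II genes included, was tested only by leaving out cells. Without all cells carrying such markers, 42 cells with at least 5 *Cxcl9* UMIs remained. *Gbp2* was then 15.3-fold, *Gbp5* 18.9-fold, *AW112010* 15.9-fold, *Cxcl10* 32.7-fold and *Cd74* 10.5-fold higher than in the cells with 0. *Apoe* fell to 1.46-fold from 2.84-fold, and *Ccl5*, another chemokine of the list, to 23.2-fold from 146-fold, with 12 of its 171 UMIs left. *Ccl5*, with 86 UMIs in the cells with 0, was not among the genes compared. In the control library only 6 cells had at least 5 *Cxcl9* UMIs, and none of them carried markers of another type, while 6 of the 14 AM markers were at least 2-fold lower. *Gbp2* was there at 750 CPM (571 to 967) against 13.4 CPM, *AW112010* at 3025 CPM against 123 CPM and *Cd74* at 3851 CPM against 435 CPM. These cells differed widely, with *Cd74* from 188 to 12921 CPM per cell. A cell with 5 *Cxcl9* UMIs held 163 of the 303 *Cd74* UMIs, without which the level was 2119 CPM, and *Gbp2* was at 531 CPM or more without any 1 cell. Among 2515 genes with enough counts to compare in so few cells, 2.58% were at least 2-fold higher and 13.8% lower, and *AW112010* was the only member among them that was 2-fold higher, since 6 of the 8 members, *Gbp2* with 59 UMIs included, had too few expected counts.

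**Figure D4:**
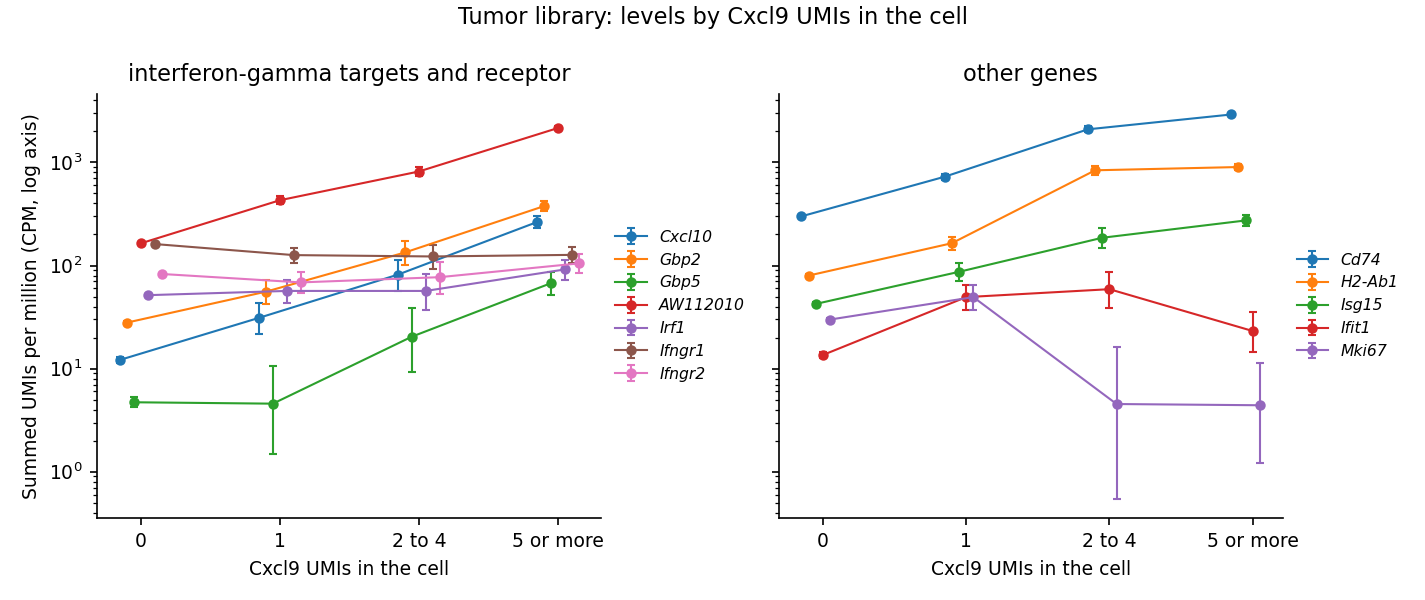
Level of the targets and receptor chains (left) and of other genes (right) in tumor library cells grouped by their *Cxcl9* UMIs, as CPM of summed UMIs on a log axis with 95% Poisson intervals. *AW112010* climbs from 164 to 2153 CPM and *Gbp2* from 28.0 to 376 CPM, while *Ifngr1* stays between 122 and 162 CPM.

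The chemokine pair was mostly found in different cells. In tumor, 166 cells had *Cxcl9* without *Cxcl10*, 236 had *Cxcl10* without *Cxcl9*, 24 had both and 7240 had neither, and in control these numbers were 87, 82, 1 and 6015. On thinned tumor cells, *Cxcl10* was detected in 12 of 116 cells with *Cxcl9* (10.3%, 5.46 to 17.4) and in 1.96% of the cells without it (1.65 to 2.32). A cell with few UMIs of a chemokine can be counted as lacking it, so the groups are not pure. The median depth was 12367 UMIs in the *Cxcl9*-only cells and 10020 in the *Cxcl10*-only cells of the tumor library.

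*AW112010* and *Gbp2* were higher in the *Cxcl9*-only cells. *AW112010* was at 1013 CPM (970 to 1057) in them, at 281 CPM (261 to 302) in the *Cxcl10*-only cells and at 160 CPM in cells with neither. *Gbp2* was at 144, 62.3 and 26.6 CPM. *Irf1* had the opposite order, at 50.04 CPM (40.9 to 60.6) in *Cxcl9*-only cells, 96.7 CPM (85.2 to 109) in *Cxcl10*-only cells and 49.7 CPM with neither. *Gbp5* was at 14.4 CPM (9.74 to 20.6) and 20.3 CPM (15.2 to 26.5), with overlapping intervals, against 4.08 CPM with neither. In the 24 cells with both chemokines, *Gbp5* was at 124 CPM (90.4 to 166), *Gbp2* at 446 CPM and *Irf1* at 182 CPM (141 to 231), all above either group. Of these 24 cells, 8 carried markers of another type, and 1 cell held 43 of their 162 *Gbp2* UMIs. *Ifngr1* was at 131 and 126 CPM and *Ifngr2* at 81.3 and 73.4 CPM in the cells with only *Cxcl9* and only *Cxcl10*.

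Outside the 8 genes, some lists differed between these groups of cells and others did little. Of 9203 genes compared, 1.42% were at least 2-fold higher in *Cxcl9*-only cells and 4.25% in *Cxcl10*-only cells. Of 8 genes of the interferon-gamma axis, 0 were 2-fold higher with *Cxcl9* and 1, *Socs1*, with *Cxcl10* (median log2 ratio 0.10), and with the minimum met at the lower rate 0 of 7 either way. Of 5 immunity-related GTPases, 0 were higher with *Cxcl9* and 1 with *Cxcl10* (−0.45). Of 5 other guanylate-binding proteins, 1 was higher with *Cxcl9* and none with *Cxcl10*. Among 8 other effectors, 3 were higher with *Cxcl9* and none with *Cxcl10* (0.56). With the minimum met at the lower rate, 2 of 7 other effectors were higher with *Cxcl9* and none with *Cxcl10*. Counts this small are not read against the shares over all genes. MHC class II genes were higher with *Cxcl9*: 5 of 6 were at least 2-fold higher than in *Cxcl10*-only cells, with *Cd74* at 1670 against 303 CPM and a log2 ratio of 2.87 (2.56 to 3.20) for *H2-Eb1*. *Cd74* in the *Cxcl10*-only cells was about the level of cells with 0 *Cxcl9* UMIs, 300 CPM. Type I interferon genes were higher with *Cxcl10*, 12 of 23 at least 2-fold and none the other way. With the minimum met at the lower rate these were 9 of 20, against 2.32% of 8710 genes. *Ifit1* was at 13.5 against 88.3 CPM and *Rsad2*, an antiviral enzyme, at 27.9 against 194 CPM. *Ifi27l2a* and *Bst2*, the most abundant genes of that list, had the other order at less than 2-fold (1071 against 665 and 456 against 368 CPM). The next most abundant, *Ifi204*, was at 86.1 against 102 CPM. Of 12 NF-kB and TNF genes, 4 were at least 2-fold higher with *Cxcl10*, *Cxcl1* at 208 against 87.6 CPM among them, and *Nfkbia* was at 942 against 511 CPM. All 6 cell cycle genes were at least 2-fold higher with *Cxcl10* (5 of 5 at the lower rate). *Mki67* was at 108 CPM in *Cxcl10*-only cells, 28.4 CPM in *Cxcl9*-only cells and 26.7 CPM with neither, and *Top2a* at 114, 17.8 and 22.5 CPM. Against the cells with neither, the 6 genes were likewise at least 2-fold higher in *Cxcl10*-only cells, where 2.38% of 10159 genes were.

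In the control library, with fewer cells, the order was the same for MHC class II, cell cycle and NF-kB genes. Of 6 MHC class II genes, 4 were at least 2-fold higher in *Cxcl9*-only cells, against 1.56% of 7691 genes, *Cd74* at 990 against 374 CPM, and *Gbp2* was at 77.3 against 17.1 CPM. All 6 cell cycle genes (5 of 5 at the lower rate) and 7 of 12 NF-kB and TNF genes were at least 2-fold higher in *Cxcl10*-only cells, against 2.9% of all genes. No order was read for type I interferon genes there: 5 of 12 were 2-fold higher with *Cxcl10* and 1, *Ifitm3*, with *Cxcl9* (median log2 ratio −0.61). With the minimum met at the lower rate, however, 1 of 8 was higher with each, at a median of −0.32. *Irf1* was at 26.1 CPM (17.2 to 38.0) with *Cxcl9* only and 41.2 CPM (29.5 to 55.8) with *Cxcl10* only, with overlapping intervals. At least 3 markers of another type were carried by 2 of the 87 *Cxcl9*-only and 0 of the 82 *Cxcl10*-only control cells. Summed T or NK cell markers were at 105 CPM (80 UMIs) in control cells with 1 *Cxcl9* UMI, against 1.57 CPM in those with 0. Markers of another type were carried by 19 of the 166 and 12 of the 236 tumor cells. There, 2 of 9 interstitial or monocyte-derived macrophage markers and 1 of 1 endothelial marker were at least 2-fold higher with *Cxcl9*. With *Cxcl10*, 2 of 2 fibroblast and 1 of 3 neutrophil markers were. With the minimum met at the lower rate, no endothelial or fibroblast marker could be compared. Without the cells carrying such markers, the log2 ratio of *Cxcl9*-only over *Cxcl10*-only cells was 2.16 for *Cd74* (2.46 with them), 1.25 for *Gbp2* (1.21), −0.81 for *Irf1* (−0.95), −2.37 for *Rsad2* (−2.80) and −1.57 for *Mki67* (−1.93).

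**Figure D5:**
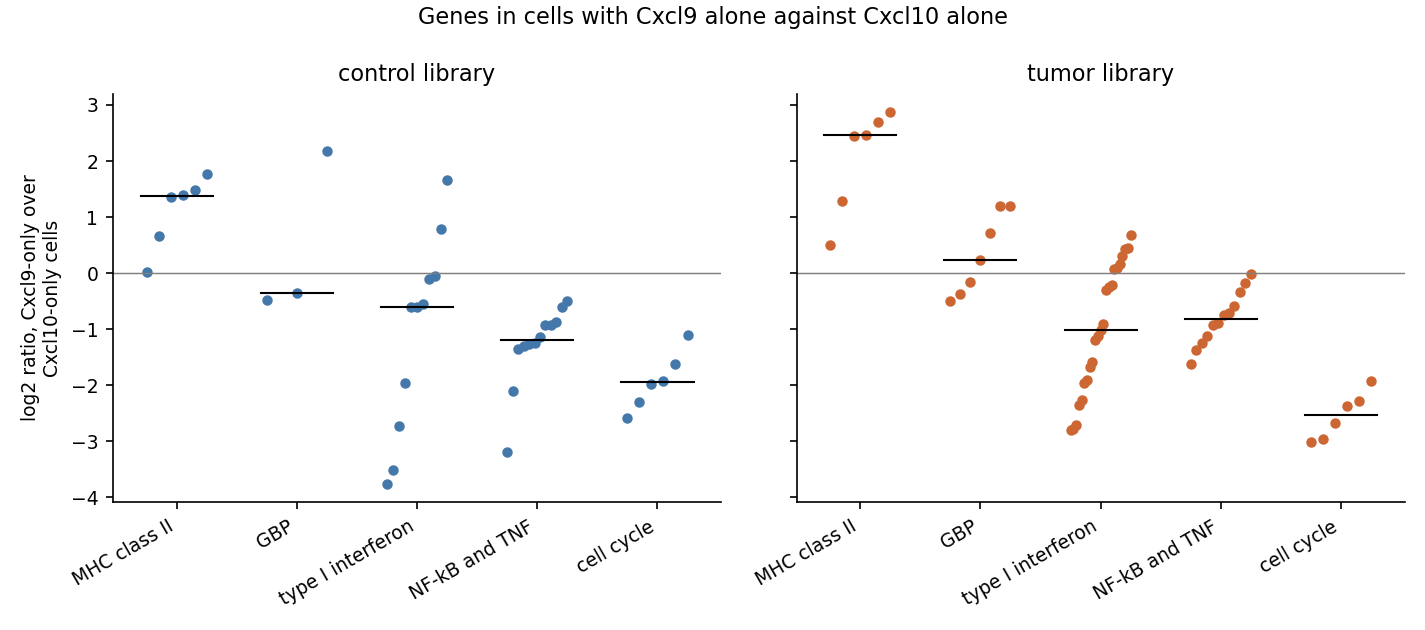
Log2 ratio of the level in cells with *Cxcl9* but no *Cxcl10* over that in cells with *Cxcl10* but no *Cxcl9*, 1 point per gene by gene list, with the list's median as a line, in the control and tumor libraries. In tumor the MHC class II median was 2.46 and the cell cycle median −2.52, and *Gbp5* and *Gbp2* lie on either side of 0 in the GBP list.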

How the data were processed

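Sorted AMs of 2 conditions were measured as 1 droplet library each with 10x Genomics 3′ chemistry. The deposited counts are raw UMIs per gene and barcode, made by the authors before their own filters. The submitters' processing notes name Cell Ranger 4.0.0 and mm10, while the paper's methods give another Cell Ranger version. Of 32285 identifiers, 32158 matched a symbol. Hashtag reads were not used here.

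Barcodes with at least 500 genes and at most 10% mt- UMIs were kept. UMIs were summed over cells and divided by the cells' total. Levels carry exact Poisson, ratios exact conditional binomial and shares exact binomial intervals (95%), all for counting error only. A count of 0 allows up to 3 counts. Called means at least 2-fold, among genes with at least 10 UMIs in both libraries together or, between groups of cells, at least 20 UMIs with 5 expected in the smaller group. Detection used cells thinned to 3800 UMIs, leaving out shallower ones. Pearson's r used log counts per 10000. Motifs were searched in RefSeq promoters. Doublets were kept: Scrublet called 1 barcode per library, under the 0.5% below which it was taken not to have worked, so removal of the highest 6% of scores (277 control, 415 tumor, ties kept) was an alternative.

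Named were the 8 members, ligands and receptors, per list the 3 genes with most tumor UMIs and the 3 with the largest ratio between cells with at least 5 and 0 *Cxcl9* UMIs, the 5 genes most like each member, and *Actb*, *Gapdh* and *Ptprc*. The feedback inhibitors, *Jak2* and other genes outside this rule were named after their values were seen. Members and lists were chosen with earlier results of these data known. The scripts were tested on simulated data (Python 3.11.15, numpy 2.4.6, scipy 1.17.1, pandas 2.3.3, scanpy 1.11.5, matplotlib 3.10.9). A gene of the pathway is not reported here.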

Additional observations from a re-analysis of the deposited data

Results flagged for a closer look

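Signals of 3 genes appeared in the barcodes that the quality filter had removed and that no comparison above uses, 2300 in control and 1509 in tumor, with the lower limit in tumor above the upper limit in control. *Cxcl10* was at 2.002 CPM (0.735 to 4.36) in the removed control barcodes and 8.26 CPM (4.72 to 13.4) in the removed tumor barcodes, from 6 and 16 UMIs. *Irf1* was at 33.0 CPM (26.8 to 40.2) and 78.5 CPM (66.5 to 92.0). *Ifngr2* was at 27.0 CPM (21.5 to 33.6) and 52.7 CPM (42.9 to 63.9). *Cxcl9*, with 8 and 10 UMIs there, had overlapping intervals, as did *Gbp2*, *Gbp5*, *AW112010* and *Ifngr1*. With 1 library per condition, no sample could stand out within a group.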

How the results depend on the processing

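Of 404 values under alternatives, no called ratio, detection difference on thinned cells or r of at least 0.1 changed sign. Unthinned, the detection differences of *AW112010* (56.0% in control, 54.6% in tumor) and *Ifngr1* (68.9% and 67.2%) had the opposite sign. Values of r near 0 changed sign, among them several pairs with a receptor chain (control *Cxcl9*–*Ifngr1*, −0.0192 and 0.0216 thinned). Between targets, on thinned control cells the r of *Cxcl9*–*Cxcl10* (0.0346) was −0.00632, of *Cxcl10*–*AW112010* (0.0188) −0.0200 and of *Irf1*–*Gbp2* (0.0409) −0.00183, the first was −0.00192 by Spearman, and the tumor *Chil3* log2 ratio between cells with at least 5 and 0 *Cxcl9* UMIs (−0.14) was 0.01 without barcodes carrying other type markers. A value stayed if it lay within the interval of the reported value or, for counts of genes or pairs, within a set fold of the reported count. Of those on the main results 31 stayed and 14 moved, and of the others 274 stayed and 85 moved. The 4 genes at least 2-fold higher in tumor became 3 when each cell's CPM was averaged, which the rule for counts passes as stayed. The *Cxcl9* log2 ratio of 2.47 moved to 1.85 with averaged cell CPM, 2.09 without barcodes carrying other type markers and 3.21 without the 10 top cells of each library. The gain in *Cxcl9* detection of 0.975 percentage points moved to 1.36 at 6000 UMIs per cell. Thinning moved its share in the top 1% of cells from 90.4% to 100% in control, where only 39 cells had a UMI left, and from 91.9% to 89.4% in tumor. The r of *Cxcl9* and *Gbp2* moved to 0.0428 (control) and 0.15 (tumor) by Spearman, to 0.15 and 0.24 on thinned cells and, in tumor, to 0.26 without barcodes carrying other type markers. Pairs with r of at least 0.1 numbered 0 (control) and 5 (tumor) by Spearman and 2 on thinned control cells. The cause was not tested. Removing high doublet scores and the stricter filter (1000 genes, 5% mitochondrial) left these results within their intervals or, for counts, within the set fold. Centring on the median gene (log2 −0.07) raised every ratio by 0.07. The minimum count met at the lower group's rate, leaving out single cells and the alternatives for the groups by *Cxcl9* UMIs and by chemokine were added after the data were seen.

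No paired analysis was possible because each condition has 1 library. Depth limits *Gbp5* in control (93 UMIs), *Ifng* and the 6 control cells rich in *Cxcl9*. Intervals cover counting error only, not mice, library preparation or sequencing.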
